A study of Mus musculus with 6 samples.

Results

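Ephrins, Eph receptors, semaphorins, plexins, Notch receptors and their ligands, and the Robo and Unc5 receptors are cell-surface and secreted proteins through which neighbouring cells, or a cell and its surroundings, exchange contact and guidance signals. Here their transcripts were measured in beta-cells sorted from reaggregated mouse islet clusters. Members were taken by symbol only: names starting with Epha, Ephb, Efna, Efnb, Sema, Plxn, Notch, Jag, Dll, Robo, Ntn or Unc5, names with Slit followed by a digit, and Nrp1 and Nrp2. Of the 13535 genes in the table, 30 matched. *Jagn1*, a protein of the endoplasmic reticulum, and *Unc50* share only their first letters with the Notch ligands and the Unc5 receptors, so 28 genes belong to the families. GENCODE M21 lists 82 protein-coding genes with such symbols. The table held 1 of 14 Eph receptors, 4 of 8 ephrins, 6 of 20 semaphorins, 5 of 9 plexins, 3 of 4 Notch receptors, 4 of 5 Notch ligands, 2 of 4 Robo receptors and 3 of 4 Unc5 receptors, and the remaining members, with all neuropilins, Slits and netrins, were not analysed here.

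The clusters were built from islet cells of wild-type C57BL/6JRj male mice aged 12 weeks. Pseudo-islets held alpha-, beta- and delta-cells and pseudo-beta held beta-cells only, and beta-cells were sorted out of both by antibodies to surface proteins after 5 days of culture. Each group had 3 samples, one from each of the experiments numbered 35, 36 and 37, and no agent or altered allele was used in either group. Whether the cells of a sample came from several mice is not given in the sources used here. The comparison asks how these genes differ between beta-cells kept with and without alpha- and delta-cells.

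Ephrins are membrane-bound ligands of Eph receptor kinases, semaphorins bind plexins, often with neuropilins, and Slit and netrin proteins bind Robo and Unc5 receptors. Notch receptors are cleaved after binding a Delta-like or Jagged ligand on an adjacent cell, and the released domain acts with RBPJ in the nucleus on targets such as *Hes1*. In islets, EphA and ephrin-A signalling between beta-cells is known to affect insulin secretion, Robo receptors are known for their part in islet architecture, and Notch signalling is best known for holding back endocrine differentiation in the developing pancreas.

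There were 3 members with an unadjusted p under 0.05 between the groups, *Dll1*, *Unc5a* and *Sema3c*. For these, an upstream window of RefSeq on GRCm38.p6 is printed where it lies outside the gene's own GENCODE exons. The letters searched for motifs can thus be read. Each printed window is 250 bases, 5′ to 3′ on the gene's strand. That of *Dll1*, a Notch ligand, is chr17:15376933-15377182 on the minus strand and holds 56.0% G or C. That of *Unc5a*, a netrin receptor, is chr13:54949161-54949410 on the plus strand and holds 76.8%. Capitals mark the GC box, GGGCGG on either strand, which neighbouring matches may share letters of.

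Dll1: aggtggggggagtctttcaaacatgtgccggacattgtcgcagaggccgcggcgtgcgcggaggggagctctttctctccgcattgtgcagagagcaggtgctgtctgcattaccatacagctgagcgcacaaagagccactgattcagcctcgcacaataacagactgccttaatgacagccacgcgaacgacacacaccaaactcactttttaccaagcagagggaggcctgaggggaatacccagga

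Unc5a: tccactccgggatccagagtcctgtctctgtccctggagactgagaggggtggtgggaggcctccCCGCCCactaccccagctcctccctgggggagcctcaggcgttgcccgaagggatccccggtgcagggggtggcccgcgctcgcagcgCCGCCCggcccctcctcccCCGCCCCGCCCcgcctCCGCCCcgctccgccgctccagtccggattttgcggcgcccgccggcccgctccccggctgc

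*Unc5a* had 5 GC boxes in this window and *Dll1* had none. Another *Dll1* window, chr17:15375824-15376073, also had none. It overlaps an exon of the gene and is not printed. *Sema3c*, a secreted semaphorin, had 3 in its window, which overlaps an exon of the gene and is not printed. Windows were found for 28 of the 30 members, 42 in all because some genes have several starts, and a GC box stood in 26 of them (61.9%) against 32.7% of all 32851 windows. The median G or C content was 64.2% in the members' windows and 52.4% in all. TGGGAA, the core bound by RBPJ, was in 8 of the members' windows (19.0%) and in 21.6% of all. TGACG, part of the cAMP response element, was in 4 (9.52%) against 17.8%, the full element TGACGTCA in 0 of 42 against 1.55%, and the E-box CACGTG in 4 (9.52%) against 6.02%. All motifs were searched on both strands, and a match is a string of letters, not a measured site.

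The deposited values are normalized counts, and the number of reads per library is unknown. They summed to 17994346 to 19635287 per library. The sorted cells carried beta-cell markers, with all 10 of those chosen present in the table. The transcription factor *Nkx6-1* was at 6018 to 7599 and *Pdx1* at 3094 to 4356 normalized counts over the 6 libraries. Of the other cell types, *Gcg* was at 1763, 941 and 2094 in pseudo-islets but at 36.1, 14.1 and 0 in pseudo-beta, and *Sst* at 190.2, 146 and 210.2 against 0, 0 and 4.74 (limma, Benjamini-Hochberg adjusted p = 0.0437 and 0.0189). The summed level of the 7 of 11 alpha-cell markers in the table was 8256 to 12184 in pseudo-islets and 5320.0 to 6530 in pseudo-beta. Most of it was *Ttr*, at 4757 to 7565 and 3063 to 4307, followed by *Slc7a2*, at 1338 to 1665 and 1526 to 2036. The 3 of 6 delta-cell markers summed to 504 to 797 and 439 to 458. Besides *Sst*, *Rbp4* was at 198 to 341 and 245 to 273, and *Casr* at 135 to 266 and 167 to 209. Their fitted log2 differences were -0.05 and -0.08, and only *Sst* of the 3 was apart between the groups. The 2 PP-cell markers summed to 658 to 5500.2 and 328 to 2482. Of 8 immune markers, 3 were in the table and summed to 1804 to 2870.1 in pseudo-islets and 1237 to 1843 in pseudo-beta, with *C1qa* at 1649 to 2661 and 977 to 1412, and *Cd79a* at 148 to 195 and 249 to 609. For duct cells 3 of 6 markers were measured, summing to 5445 to 6129 and 4391 to 6891. Nearly all of this was 1 gene, *Krt7*, at 4892 to 5614 and 3906 to 6626. *Krt19* was at 3.51 to 50.0 and 8.82 to 40.5, and *Spp1* at 194 to 547 and 256 to 474. For Schwann cells 2 of 5 were measured, at 110.1 to 179.8 and 129 to 147. For endothelial cells there was 1 of 8, *Esam*, at 41.4 to 74.4 and 56.5 to 89.5. None of 8 acinar and 8 stromal markers had a row. With the block in the limma fit, *Ppy* and *Pyy*, both higher in pseudo-islets in 3 of 3 experiments, had adjusted p of 0.00267 and 0.0259, and the alpha-cell list members *Ttr* and *Etv1* 0.0303 and 0.0319. *C1qa* and *Cd79a* had 0.00305 and 0.0385 in that fit, and none of these 6 genes passed without the block. These markers moved with the groups in part, and their part in the results on the members was not tested. In sorted populations measured in bulk, fewer cells of a type and less RNA per cell cannot be told apart.

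No member passed the test between pseudo-islets and pseudo-beta. With limma on log2(normalized count + 1), 0 of the 30 members had a Benjamini-Hochberg adjusted p under 0.05, where 8 of 13535 genes (0.0591%) did. With the experiment as a block in the fit, again 0 members passed, against 73 genes (0.539%). At an unadjusted p under 0.05, 1 member was higher in pseudo-islets (*Sema3c*) and 2 were lower (*Dll1* and *Unc5a*), in both fits. Over all genes those shares were 2.73% higher and 2.67% lower without the block and 6.69% and 5.22% with it. The 3 libraries of a group all lay above those of the other for 2 members higher in pseudo-islets (*Efna1* and *Sema3c*, where 5.63% of all genes did so) and for 3 lower ones (*Dll1*, *Notch1* and *Unc5a*, against 5.13%). Within experiments, 4 members were higher in pseudo-islets in 3 of 3 (*Efna1*, *Efna5*, *Jagn1* and *Sema3c*, where 18.0% of genes were). The 5 lower in 3 of 3 were *Dll1*, *Dll4*, *Epha7*, *Notch1* and *Unc5a*, against 15.0% of genes. Of these, *Dll4* reached 10 normalized counts in only 1 pseudo-islet library, and in 3 of pseudo-beta. In fitted direction, 14 members were higher and 16 lower, with a median log2 fold change of -0.02 beside 0.01 for all genes.

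**Figure D1:**
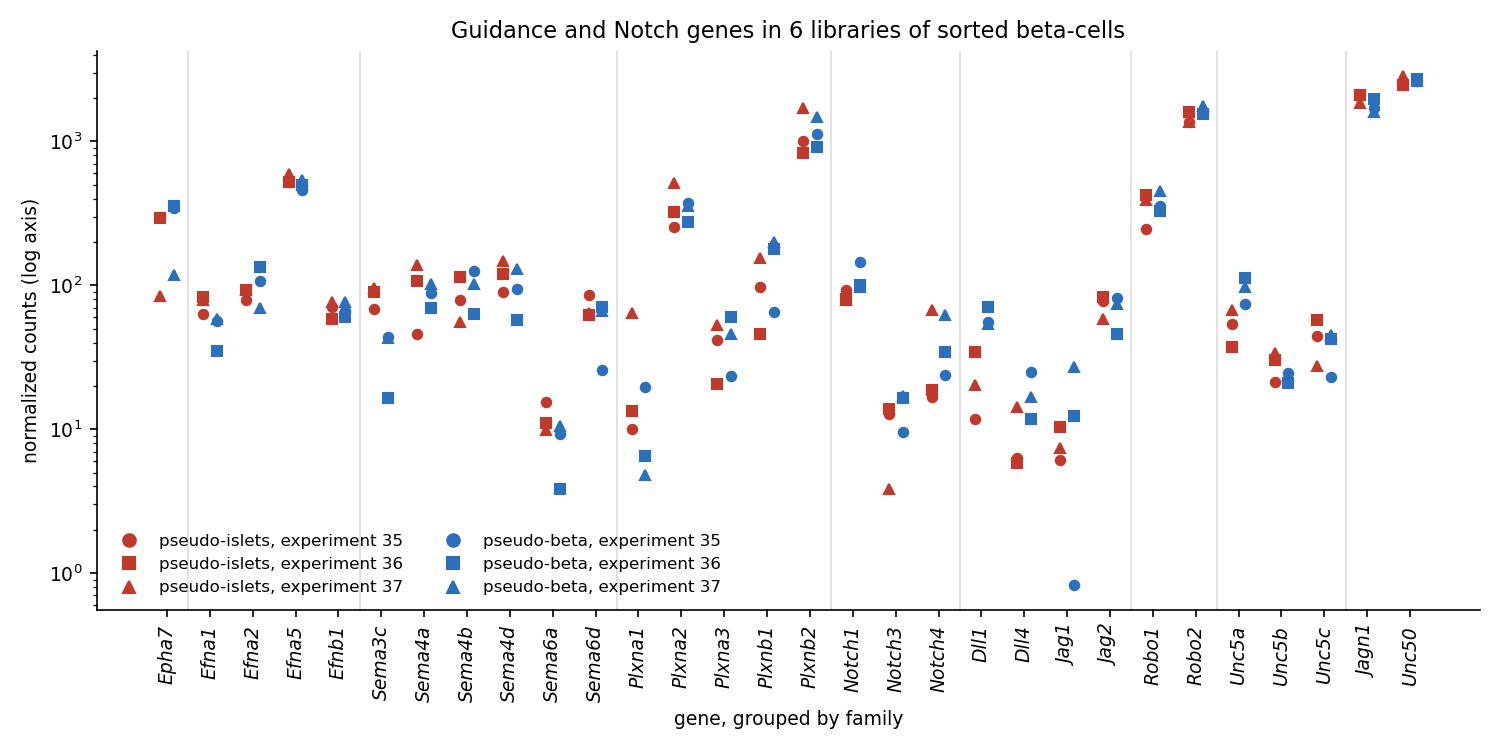
Normalized counts (log axis) of the 30 members in each of the 6 libraries, grouped by family, with 1 point per library and colour for the group. *Robo2*, *Plxnb2*, *Jagn1* and *Unc50* lie highest, and points of the 2 groups overlap for all but 5 members.

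The 5 members without overlap between the groups were 3 of the Notch and netrin receptor systems and 2 ligands of other families. *Dll1* (Delta-like 1, ENSMUSG00000014773, chromosome 17, 15367354 to 15376872 on GRCm38) was at 11.7, 34.6 and 20.2 normalized counts in the pseudo-islets of experiments 35, 36 and 37, and at 55.3, 70.3 and 53.8 in pseudo-beta. Every pseudo-beta library was above every pseudo-islet library, 59.8 ± 9.12 against 22.2 ± 11.6 (mean ± SD, n = 3 each). On the log2 scale pseudo-islets over pseudo-beta gave -1.51, where the standard error was 0.47 and a 95% interval from -2.55 to -0.46. Its unadjusted p of 0.00903 became 0.781 after adjustment by Benjamini-Hochberg in limma, and 0.205 with the block. A long noncoding RNA gene, *A930024N18Rik*, overlaps *Dll1* on the other strand, and whether the counting used strand is not given in the sources used here.

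*Sema3c*, whose product signals through neuropilins and plexins, was at 68.7, 89.8 and 96.5 normalized counts in pseudo-islets against 43.4, 16.5 and 43.4 in pseudo-beta in the same order of experiments. Its groups were apart by 85.0 ± 14.5 against 34.4 ± 15.6. The gene (ENSMUSG00000028780, chromosome 5, 17574281 to 17730268) overlaps no other annotated gene. The fitted log2 fold change was 1.39 (standard error 0.44, interval 0.41 to 2.37), with a limma adjusted p of 0.781 without and 0.216 with the block.

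*Unc5a* (ENSMUSG00000025876, chromosome 13, 54949411 to 55006018), a dependence receptor for netrins, was measured at 54.1, 37.0 and 67.1 normalized counts in pseudo-islets against 74.4, 112 and 97.8 in pseudo-beta. The highest pseudo-islet library and the lowest pseudo-beta library, 67.1 and 74.4, were close. On the log2 scale the difference was -0.86 (standard error 0.35, interval -1.63 to -0.08), and the limma adjusted p was 0.897, or 0.362 with the block. *Hk3*, a protein-coding gene, overlaps it on the opposite strand. *Unc5b* and *Unc5c*, of the same receptor family, had fitted differences of 0.26 and 0.22 (standard errors 0.44 and 0.45) and overlapped between the groups.

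*Efna1* (ENSMUSG00000027954, chromosome 3, 89271733 to 89281142), which encodes the ephrin-A1 ligand, was at 63.1, 82.7 and 79.0 normalized counts in pseudo-islets against 56.3, 35.1 and 58.6 in pseudo-beta. The lowest pseudo-islet library stood just above the highest pseudo-beta library. Its log2 fold change was 0.60 (standard error 0.35, interval -0.18 to 1.38, limma adjusted p = 0.969 and 0.548 with the block). *Notch1* (ENSMUSG00000026923, chromosome 2, 26457903 to 26516663), the most abundant Notch receptor in normalized counts, was at 92.2, 80.2 and 79.2 against 145, 99.8 and 97.0. Pseudo-beta of experiment 35 stood highest, and the lowest pseudo-beta library exceeded the highest pseudo-islet library by less than the spread among pseudo-beta. The log2 fold change was -0.42 (standard error 0.29, interval -1.06 to 0.23, limma adjusted p = 0.989 and 0.604 with the block). The gene is overlapped on the other strand by *0610009E02Rik* and *Gm13568*.

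**Figure D2:**
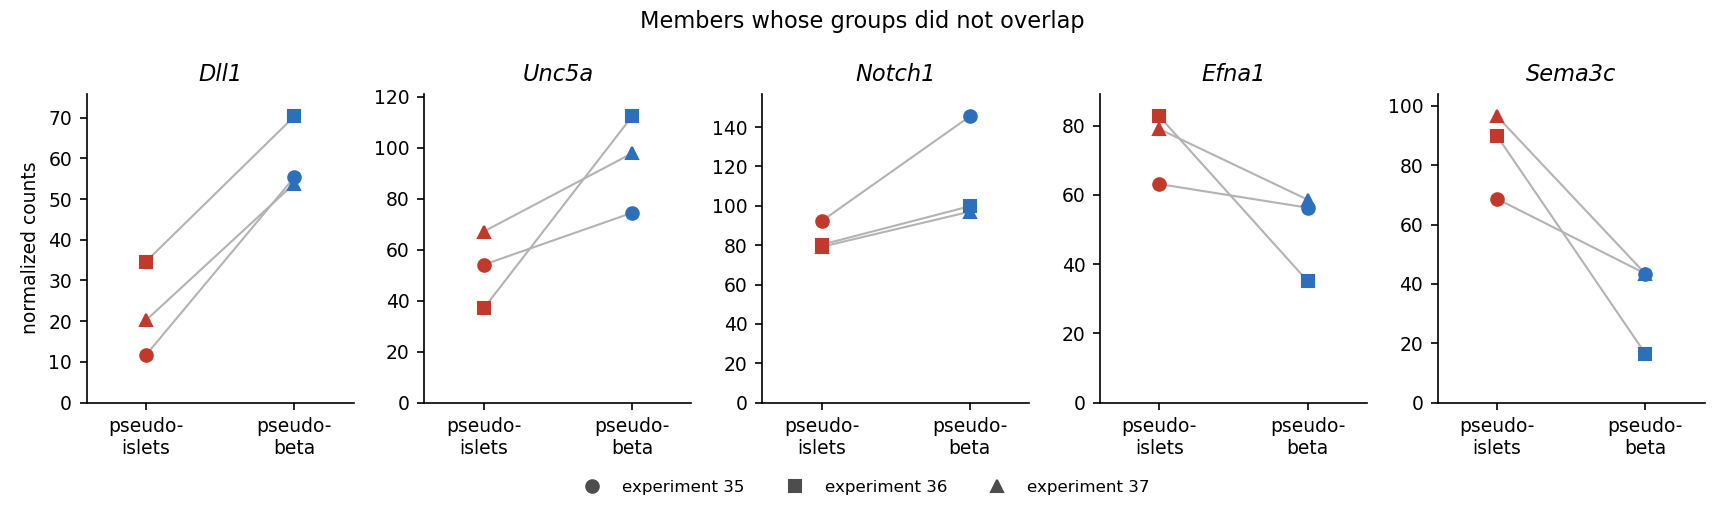
Normalized counts of the 5 members whose groups did not overlap, 1 panel a gene, with pseudo-islets and pseudo-beta libraries of one experiment joined by a line. *Sema3c* and *Efna1* lie higher and *Dll1*, *Unc5a* and *Notch1* lower in pseudo-islets in all 3 experiments, and the difference ranges in size from gene to gene.

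Among the Notch ligands, *Jag2* was the most abundant at 77.8, 83.2 and 57.9 normalized counts in pseudo-islets against 82.1, 46.0 and 73.8 in pseudo-beta. Its groups overlapped, and the fitted log2 difference was 0.14 (standard error 0.35, interval -0.64 to 0.92, limma adjusted p = 0.998). *Dll4*, a ligand best known from blood vessels, was low, at 6.35, 5.85 and 14.3 against 24.8, 11.7 and 16.7. It was lower in pseudo-islets in 3 of 3 experiments by a fitted -0.97 on the log2 scale (standard error 0.63). It reached 10 normalized counts in 3 pseudo-beta libraries and 1 of pseudo-islets. Every gene of the table reached 10 in 3 or more libraries, which *Dll4* met through the group where it was higher. *Jag1* ran from 0.827 to 27.3 normalized counts over the pseudo-beta libraries alone and from 6.09 to 10.4 over pseudo-islets. The 4 ligands summed to 102, 134 and 99.8 in pseudo-islets, against 163, 140.3 and 172 in pseudo-beta. No test was made of the sum, and of the 4 only *Dll1* had groups that did not overlap. *Dll1* had the widest gap between the group means of the 4, and *Jag2* had the opposite sign.

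Of the other Notch receptors, *Notch3* and *Notch4* were at 3.87 to 16.9 and 16.8 to 67.9 normalized counts and their groups overlapped. Both had a lower mean in pseudo-islets, by a fitted -0.57 and -0.40 on the log2 scale, where the standard errors were 0.68 and 0.61. The receptors summed to 122, 113 and 151 in pseudo-islets, against 179, 151 and 177 in pseudo-beta. The pathway around them was followed through lists. Of 10 genes that process Notch (proteases and their partners), all in the table, 7 were fitted higher and 3 lower, with a median log2 fold change of 0.07. Of 20 modulators 16 were in the table, 6 higher and 10 lower (median -0.12), and of 14 nuclear genes and targets 8 were, 3 higher and 5 lower (median -0.14). None of these genes passed in either limma fit, the lowest adjusted p being 0.928, 0.976 and 0.811 for the lists in that order, or 0.381, 0.492 and 0.173 with the block. At an unadjusted p under 0.05 the block fit held 1 of the processing genes, 0 modulators and 1 nuclear gene, both lower in pseudo-islets, where 5.22% of all genes were lower at that p.

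These were *Adam17*, a sheddase, and *Spen*, a corepressor with RBPJ, named here after their values were seen and given as values, since neither passed. *Adam17* was at 250, 233 and 273 normalized counts in pseudo-islets against 452, 382 and 259 in pseudo-beta, so experiment 37 went the other way. Its fitted log2 difference was -0.50 (standard error 0.24, limma adjusted p = 0.928 and 0.381 with the block). *Spen* was at 83.5, 155 and 90.8 normalized counts in pseudo-islets against 167, 194 and 404 in pseudo-beta, which the fit put at -1.15 on the log2 scale (standard error 0.37, limma adjusted p = 0.811 and 0.173 with the block). *Hes1*, the classic Notch target, was at 26.9, 33.1 and 72.5 against 56.0, 67.5 and 76.6, lower in pseudo-islets in each experiment. The ranges met, and its fitted difference of -0.71 had a standard error of 0.43 and a limma adjusted p of 0.973, or 0.492 with the block. *Hes6*, the other Hes gene of the list in the table, was at 1299, 1610 and 1480 against 1578, 1712 and 1378. It was higher in pseudo-islets in experiment 37, and its fitted difference was -0.09 (standard error 0.15). *Rbpj* itself gave 0.12 with a standard error of 0.27.

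The ephrin ligands other than *Efna1* overlapped between the groups. *Efna5*, the most abundant ephrin, was at 522, 525 and 597 normalized counts in pseudo-islets against 458, 494 and 538 in pseudo-beta, higher in 3 of 3 experiments although the ranges overlapped. Its log2 fold change was 0.14 with an interval of -0.23 to 0.52 (limma adjusted p = 0.998), or -0.16 to 0.44 with the block. *Efna2* was at 78.8 to 92.7 against 70.0 to 134, and *Efnb1*, an ephrin-B ligand, at 58.3 to 76.4 against 60.7 to 76.0. The 4 ephrins summed to 734, 758 and 845 in pseudo-islets, against 688, 724 and 743 in pseudo-beta.

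The one Eph receptor measured, *Epha7* (ENSMUSG00000028289, chromosome 4, 28813131 to 28967499, with antisense *Gm11915* on the other strand), differed by experiment more than by group. It was at 297, 296 and 84.1 normalized counts in pseudo-islets against 343, 354 and 119 in pseudo-beta. Pseudo-beta was higher in each experiment, but both libraries of experiment 37 were far lower than the other 4. The group difference was -0.32, with a standard error of 0.53 in the fit without and 0.19 with the block, and a limma adjusted p of 0.998 and 0.570. The experiment term, tested by limma's moderated F test with group in the model, gave an adjusted p of 0.00391.

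Of the 6 semaphorins 5 were fitted higher in pseudo-islets, and none passed the test. *Sema4d*, the most abundant semaphorin in normalized counts not divided by transcript length, was at 89.3, 119 and 147 in pseudo-islets against 94.5, 57.2 and 129 in pseudo-beta. The groups overlapped, and the log2 fold change of 0.38 had an interval of -0.41 to 1.18 (limma adjusted p = 0.998). *Sema4a*, *Sema4b*, *Sema6a* and *Sema6d* gave 0.04, -0.23, 0.64 and 0.49, with standard errors of 0.42, 0.38, 0.67 and 0.43. *Sema6a*, a membrane semaphorin, had at least 10 normalized counts in only 3 libraries. Summed over the 6 genes, the semaphorins were at 385, 504 and 510.4 against 388, 281 and 453 normalized counts. In experiment 35 the sums were alike, and most of the difference lay in experiment 36.

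The plexins, their receptors, were dominated by *Plxnb2* (ENSMUSG00000036606, chromosome 15, 89155549 to 89180788), a receptor for class 4 semaphorins. Its libraries held 1000.1, 836 and 1702 normalized counts in pseudo-islets against 1128, 922 and 1481 in pseudo-beta. Experiment 37 was the highest in both groups, and the group means, 1179 ± 459.8 and 1177 ± 283, were nearly equal. Its log2 fold change was -0.04 with an interval of -0.62 to 0.55, narrowing to -0.30 to 0.22 with the block (limma adjusted p = 0.998 and 0.937). *Plxna1*, a receptor for class 3 and 6 semaphorins with partners, was at 63.9 normalized counts in the pseudo-islets of experiment 37. It was at 4.77 to 19.8 in the other 5 libraries, and its fitted log2 difference of 1.17 rests on the highest library (standard error 0.81). It reached 10 normalized counts in 3 pseudo-islet libraries and 1 of pseudo-beta, so mainly in the group where it was higher. *Plxna2*, *Plxna3* and *Plxnb1* gave 0.07, -0.17 and -0.57, with standard errors of 0.27, 0.51 and 0.52, and overlapped.

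*Robo2* and *Robo1* are receptors for Slit proteins. *Robo2* (ENSMUSG00000052516, chromosome 16, 73891839 to 74411825) was at 1354, 1609.8 and 1364 normalized counts in pseudo-islets against 1583, 1558 and 1756 in pseudo-beta. Its libraries overlapped through the pseudo-islets of experiment 36 alone, and the log2 fold change of -0.18 had an interval of -0.49 to 0.13 (limma adjusted p = 0.992), or -0.42 to 0.06 with the block (0.573). *Robo1* was at 248, 424 and 393 against 357, 327 and 449.7, a difference of -0.11 with an interval of -0.66 to 0.43. Within a library *Robo2* exceeded *Robo1* by 3.47 to 5.46 times in normalized counts in pseudo-islets and 3.90 to 4.77 times in pseudo-beta.

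**Figure D3:**
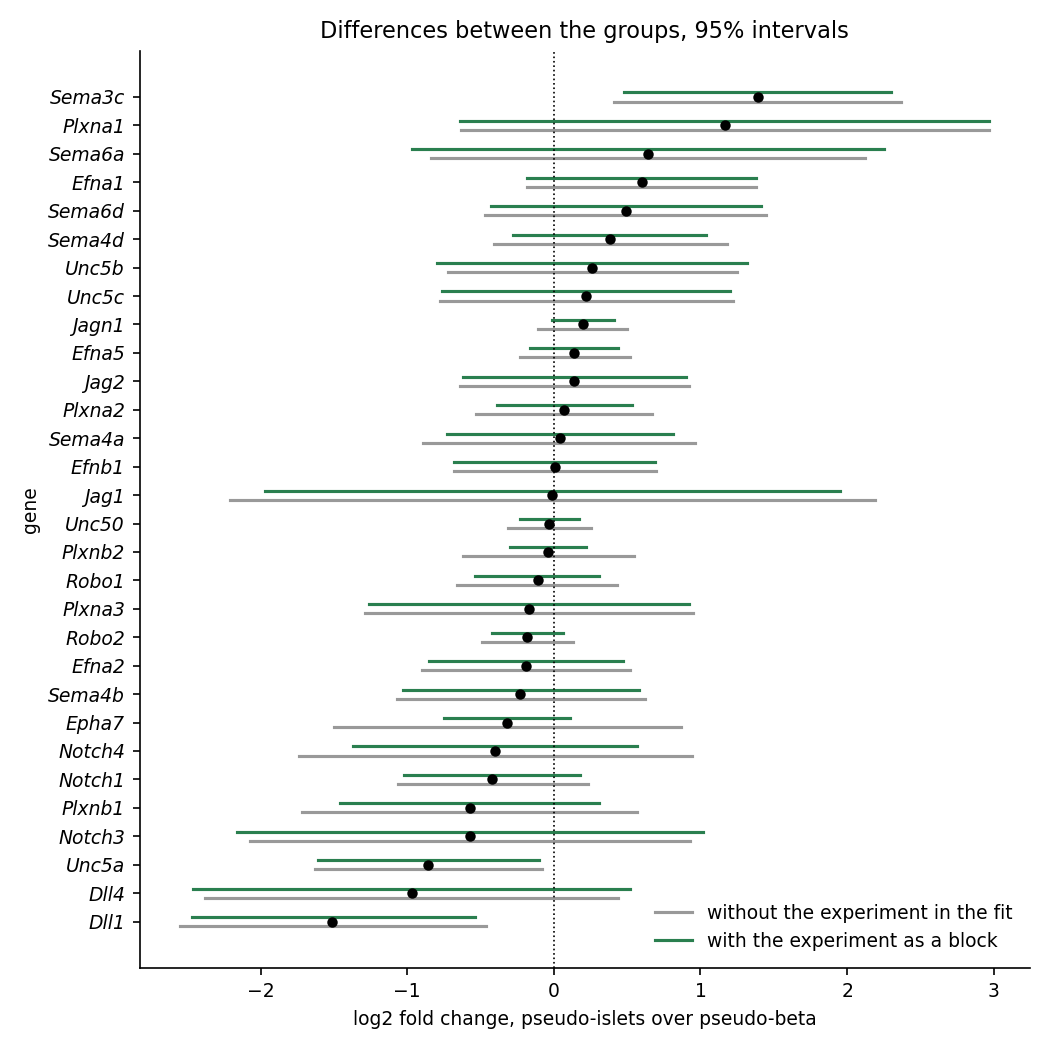
Log2 fold change of pseudo-islets over pseudo-beta for the 30 members with 95% intervals from limma, grey without the experiment in the fit and green with it as a block. Only *Dll1*, *Unc5a* and *Sema3c* have intervals that do not reach 0 in both fits, and none has an adjusted p under 0.05.

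The intervals set what a difference could have been. The standard error of a member's log2 fold change had a median of 0.40, or 0.35 with the block, against 0.27 and 0.21 for all genes, and members had a median mean level of 72.0 normalized counts against 240 for all genes. In 4 members without and 7 with the block the interval lay within 1.5-fold in either direction, and leaving out *Jagn1* and *Unc50*, which are among both, these were 2 (*Robo2* and *Efna5*) and 5. For the others a larger difference was not excluded by the interval. At least 10 normalized counts in every library were reached by 25 members, and *Dll4*, *Jag1*, *Notch3*, *Plxna1* and *Sema6a* did not reach that.

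Differences between the 3 experiments were tested in the same way for all members. They passed for 2 of 30 (6.32% of all genes), *Epha7* and *Plxnb2*. *Epha7* averaged 320.4, 325 and 101 normalized counts in experiments 35, 36 and 37, with an F of 33.01 and a limma adjusted p of 0.00391. *Plxnb2* averaged 1064, 879 and 1591 (F of 18.16, limma adjusted p = 0.0155). *Notch4* followed, at 20.2, 26.6 and 65.3 with an adjusted p of 0.148, and no other member was under 0.284. With a prior variance that did not follow mean expression, neither *Epha7* nor *Plxnb2* passed. The batch meant here is the experiment number of the labels, and what else differed between experiments is not given in the sources used here.

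**Figure D4:**
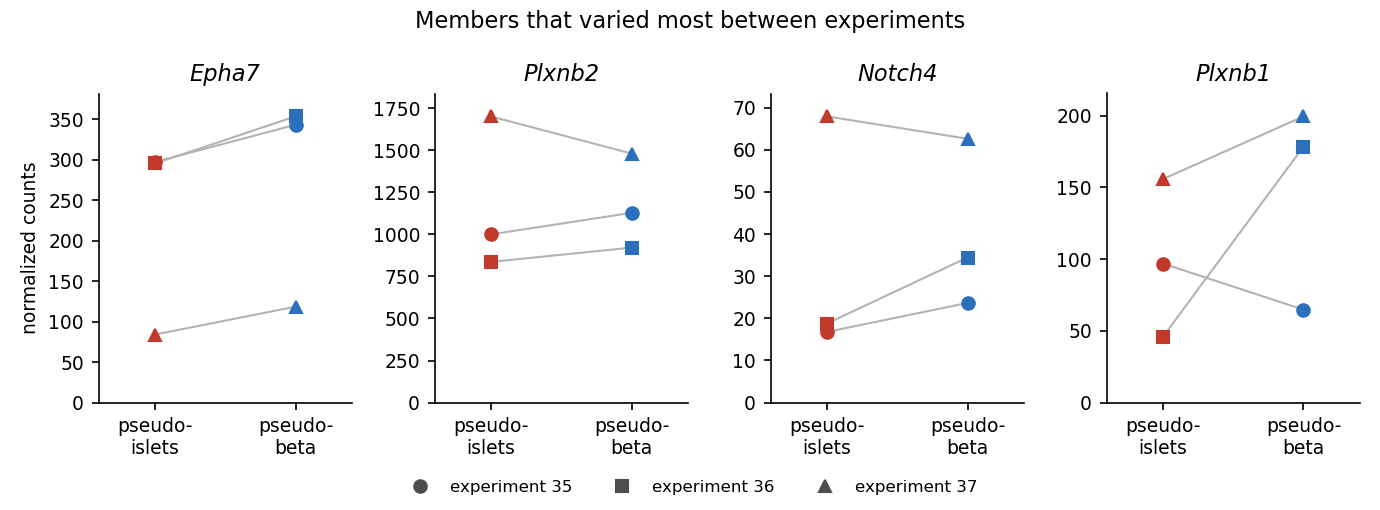
Normalized counts of *Epha7*, *Plxnb2*, *Notch4* and *Plxnb1* by experiment, with 1 line joining the 2 groups of each experiment. The experiment 37 libraries lie lowest for *Epha7* and highest for *Plxnb2* and *Notch4* in both groups.

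On a scale of normalized counts per kb of the longest coding transcript, over all 6 libraries, *Plxnb2* (181 ± 52.6) and *Robo2* (179 ± 18.0) led the families and did not differ beyond their spread. *Efna5* followed at 129.6 ± 11.5, and the next were *Robo1* at 48.4 ± 9.67, *Efna2* at 45.0 ± 10.6, *Efna1* at 38.3 ± 10.6, *Epha7* at 36.9 ± 17.4 and *Plxna2* at 31.6 ± 8.36, each within the spread of its neighbours. In the Notch system *Jag2*, *Notch1* and *Dll1* were at means of 14.3, 8.84 and 6.19 per kb in pseudo-islets, and at 13.2, 12.03 and 16.7 in pseudo-beta. The order of these means was not tested, and none of the 3 genes passed between the groups (limma adjusted p = 0.998, 0.989 and 0.781). *Jagn1* and *Unc50*, 1574 and 1854 per kb, stood above every family member. The lowest were *Notch3* at 1.52 and *Sema6a* at 1.46.

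**Figure D5:**
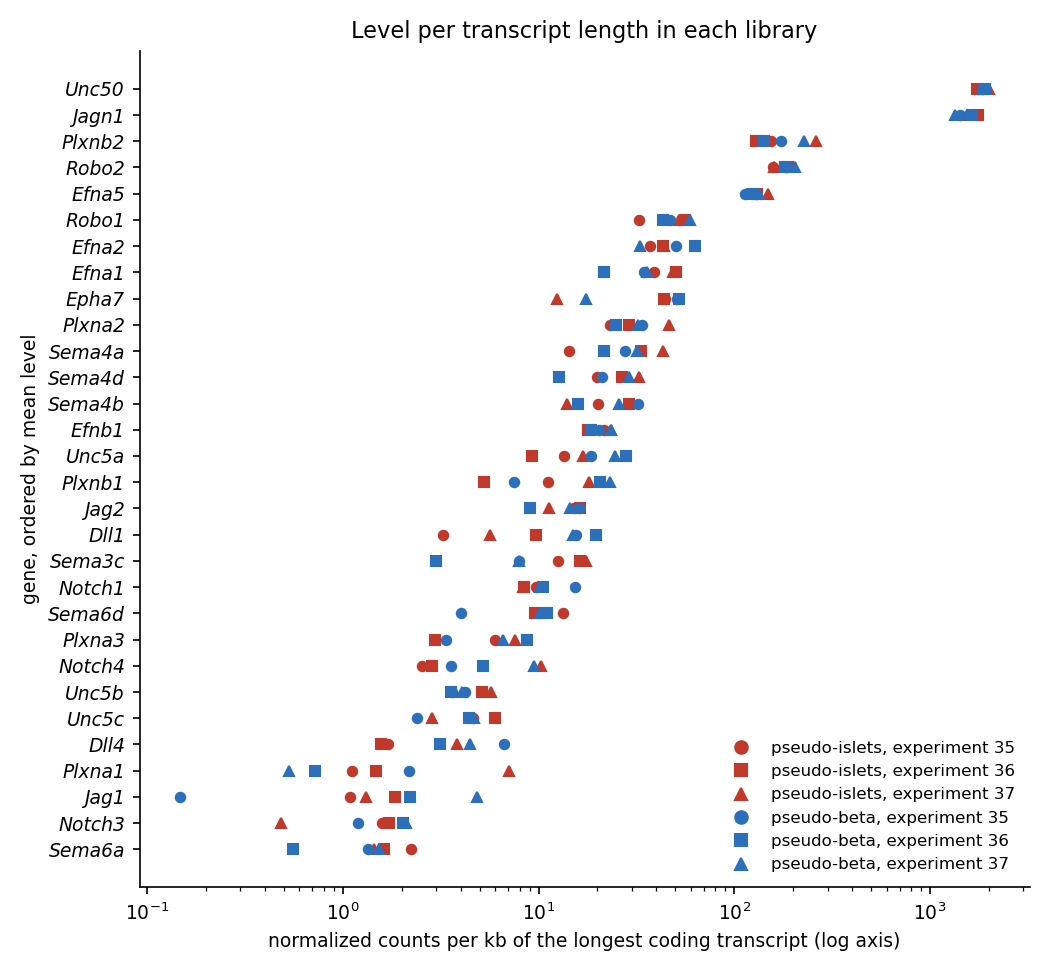
Normalized counts per kb of the longest coding transcript (log axis) for the 30 members in each library, ordered by level. *Plxnb2*, *Robo2* and *Efna5* lead the guidance families, below *Jagn1* and *Unc50*.

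Of the other guidance receptors and ligands, 6 of 14 were in the table, 2 higher and 4 lower in pseudo-islets (median log2 fold change -0.21). At an unadjusted p under 0.05 there was 1, *Rgmb*, lower by a fitted -0.81 on the log2 scale (standard error 0.33). Its limma adjusted p was 0.880, or 0.186 with the block. Of 66 effectors that act downstream of these receptors, 52 were in the table, 23 higher and 29 lower (median -0.07). None passed in either fit, the lowest adjusted p being 0.671 without and 0.200 with the block. With an unadjusted p under 0.05 there were 3 effectors without the block (5.77%, beside 5.40% of all genes) and 12 with it, 6 in each direction (23.1%, beside 11.9% of all genes). Without the block these effectors were *Vav2* and *Ngef*, fitted higher at 1.55 and 2.23, and *Arhgap39*, fitted lower at -1.09. *Ngef* was low, at 0 to 22.4 normalized counts. *Rgmb* and these effectors were named after their values were seen. *Jagn1* was at 1851 to 2107 in pseudo-islets and 1609 to 1964 in pseudo-beta and *Unc50* at 2448 to 2839.6 and 2614 to 2696, with log2 fold changes of 0.20 and -0.03 and standard errors of 0.14 and 0.12.

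Split by experiment, the median log2 difference of the members was -0.13, -0.01 and -0.02 in experiments 35, 36 and 37, beside 0.00, 0.00 and 0.04 for all genes.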

How the data were processed

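Beta-cells from 3 pseudo-islet and 3 pseudo-beta samples were analysed, grouped by the labels. Starting from 5 ng of RNA, the authors made libraries with ribosomal RNA depletion, sequenced pairs of 75 bases, aligned with STAR 2.7.6a to GRCm38, quantified with RSEM 1.3.1 and normalized with DESeq2 1.26.0 (versions from the submitters' processing notes). The deposited signal is a normalized count per gene and library, not a raw count. Other columns by the authors in the deposited table hold an average signal, a log2 ratio of the groups and its standard error, a test statistic as a score, and p-values and adjusted p-values, which are their own comparison and were not used. Between 25.2% and 42.9% of values between 0.3 and 40 in each library were whole multiples of one step, to within 0.02 of it, so reads were not recovered and depth is unknown.

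The values were compared with limma 3.58.1 in R 4.3.3 on log2(value + 1), with a prior variance following mean expression, over all 13535 genes, and a gene was called at a Benjamini-Hochberg adjusted p under 0.05. Every gene reached 10 normalized counts in 3 or more libraries and none was removed. Fold changes are on this log2 scale, which understates changes of low genes. An exact permutation test of 3 against 3 libraries cannot give p below 0.1 and was not used. Samples were paired by the experiment numbers of the labels. The main fit had the group alone and ignored this pairing, which the fits with the block used. Standard errors, intervals and p-values between the groups given without mention of the block come from the main fit. Deviations from the group means correlated at 0.119, 0.121 and 0.325 within experiments 35, 36 and 37, each over a set minimum of 0.1. Between experiments the values were -0.203 to 0.092, so only experiment 37 stood clearly apart. Deviations from a mean of 3 libraries add to 0, so the values between experiments are not independent of those within. Samples were taken as replicates because the labels and methods place them in separate experiments.

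Every member is named. Values per library are given for members with an unadjusted p under 0.05, members without overlap between groups and the most abundant of each family, and for others where they help the comparison. Members and lists were chosen with earlier results of these data known. Coordinates and transcript lengths came from GENCODE M21 and upstream windows from RefSeq. The fits between the groups were tested on simulated data with no difference between experiments, so this cannot check how such differences were handled. Alternatives were the block, no trend, 2 pseudocounts, a filter, a rescaling, and leaving out libraries or experiments.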

Additional observations from a re-analysis of the deposited data

How the results depend on the processing

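No member was called by limma in any of 18 alternatives, with 2 to 5 members at an unadjusted p under 0.05. The number of all genes called, 8, was 2 with one prior variance for all genes, 1 with a pseudocount of 0.1, 2 with scaling without the 10 most abundant genes, and 0 to 13 when single libraries were left out. With the experiment as a replicate block it was 73, with the block 81 after that scaling, 118 among genes with at least 10 in every library, and 28, 45 and 73 without single experiments. With the block and one prior variance, chosen after seeing the data, it was 0 (1136 genes at an unadjusted p under 0.05). The block changed no call of a member.

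The members' median log2 fold change, -0.019, was 0.107 without pseudo-beta 37 and 0.066 without pseudo-islets 35, and ran from -0.066 to 0.107 without single libraries. Members differing between experiments fell from 2 to 0 with one prior variance. Of 198 values for 11 named genes, 190 kept their direction, none passed the threshold, and 8 reversed. *Epha7* ran from -0.83 to 0.28 (0.28 without pseudo-islets 37), *Jag2* from -0.21 to 0.38 (0.30 without pseudo-beta 35, -0.11 without pseudo-beta 36, -0.21 with the block without experiment 36) and *Plxnb2* from -0.34 to 0.18 (0.14 without pseudo-beta 37, 0.05 and 0.18 without pseudo-islets 35 and 36, 0.03 and 0.01 with the block without experiments 35 and 36). The cause was not tested. *Dll1* stayed between -1.88 and -1.13, *Sema3c* between 0.89 and 1.76 and *Unc5a* between -1.06 and -0.50, with adjusted p of 0.111 to 1.0, 0.144 to 1.0 and 0.316 to 1.0. The rescaling shifted all genes by a median of -0.057, and 18 rather than 16 members were then lower.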
